A study of Homo sapiens with 6 samples.

Results

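A set of 10 neuronal genes was followed through the H3K27me3 maps of 3 lymphoma cell lines, in which the repressive mark H3K27me3 is deposited by the methyltransferase EZH2. The 10 genes were GAD1 and GAD2, GRIN1, TH, SLC6A3, DRD1 and DRD2, KCNA1 and KCNK9, and RELN, a set given by symbol and hg19 position and chosen with earlier results of these maps known. An enriched interval, here called an island, belonged to a gene where it met the gene or the 5 kb on either side of it (together the gene window). By this rule 14 of 21258 autosomal islands lay near the genes in Pfeiffer, 16 of 23066 in WSU-DLCL2 and 16 of 27589 in KARPAS-422. Each line, from diffuse large B cell lymphoma, had 1 H3K27me3 library and 1 input library, and cells of all 3 were fixed with formaldehyde without any drug named in the labels. All 3 lines are labelled EZH2 mutant. Their labelled average gIC50 values, for which no compound is named, were 28 nM in Pfeiffer, 134 nM in WSU-DLCL2 and 232 nM in KARPAS-422. The lines are given in that order. There were no replicates, so lines were compared without a test. The title of the series also names wild-type lines, not analysed here.

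The genes cover several steps of nerve signalling. GAD1 and GAD2 make the inhibitory transmitter GABA from glutamate, and GRIN1 is the obligatory subunit of NMDA glutamate receptors. TH, tyrosine hydroxylase, carries out the rate-limiting step of dopamine synthesis, SLC6A3 takes dopamine back up, and DRD1 and DRD2 are dopamine receptors with opposite effects on cyclic AMP. KCNA1 is a voltage-gated potassium channel and KCNK9 a two-pore leak channel. RELN encodes reelin, a secreted protein that guides neurons in the developing cortex. In cells outside the nervous system such genes are commonly silent, and the Polycomb complex that contains EZH2 often marks silent genes whose promoters are rich in the dinucleotide CG.

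Of the 10 genes, 4 had a promoter in the RefSeq table, and these are shown because their starts differed in the mark although all were rich in CG. Each run holds the 250 bases before the gene start, 5′ to 3′ along the gene, with every CG in capitals. Positions are on GRCh38.p14 and differ from the hg19 positions used for the islands. The table lists a pair of starts for GAD2, of which the upstream is given.
GAD1 (chr2:170816637-170816886, + strand): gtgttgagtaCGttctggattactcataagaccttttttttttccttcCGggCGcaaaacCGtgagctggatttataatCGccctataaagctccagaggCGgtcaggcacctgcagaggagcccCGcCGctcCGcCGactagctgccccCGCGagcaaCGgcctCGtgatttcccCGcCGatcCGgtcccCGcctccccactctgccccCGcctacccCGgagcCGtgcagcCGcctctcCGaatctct
GAD2 (chr10:26216122-26216371, + strand): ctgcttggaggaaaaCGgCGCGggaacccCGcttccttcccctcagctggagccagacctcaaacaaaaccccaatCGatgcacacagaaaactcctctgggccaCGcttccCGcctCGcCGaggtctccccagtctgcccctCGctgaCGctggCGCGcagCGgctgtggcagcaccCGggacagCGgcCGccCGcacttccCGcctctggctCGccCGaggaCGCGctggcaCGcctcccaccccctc
DRD1 (chr5:175444183-175444432, - strand): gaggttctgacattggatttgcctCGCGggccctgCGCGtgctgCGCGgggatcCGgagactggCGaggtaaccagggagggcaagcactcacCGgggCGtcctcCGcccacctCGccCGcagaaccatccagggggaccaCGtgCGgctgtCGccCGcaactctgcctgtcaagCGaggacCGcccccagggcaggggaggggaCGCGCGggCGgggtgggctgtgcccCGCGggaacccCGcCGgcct
RELN (chr7:103989659-103989908, - strand): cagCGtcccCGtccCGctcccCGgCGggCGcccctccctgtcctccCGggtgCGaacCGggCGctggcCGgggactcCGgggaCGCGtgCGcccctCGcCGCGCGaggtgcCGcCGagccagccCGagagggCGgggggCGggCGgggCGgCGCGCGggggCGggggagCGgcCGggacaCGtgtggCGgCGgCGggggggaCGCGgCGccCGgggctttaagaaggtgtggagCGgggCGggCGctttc

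The RELN promoter held 43 CG dinucleotides in 250 bases, as many as or more than 99.2% of the 35116 promoters in the table, whose median was 11. The DRD1 promoter held 27, the GAD2 promoter 24 and the GAD1 promoter 23, at the percentiles 84.1, 78.4 and 76.3. GC content was 83.2% for RELN, 73.2% for DRD1, 69.2% for GAD2 and 61.6% for GAD1. At the most CG-rich of these promoters, RELN, no base within 5 kb of the start lay in an island of any line. At GAD1 and DRD1 most bases within 5 kb of the start were covered in all 3. The GAD1 start itself lay in a gap of 3 kb in Pfeiffer. The repressor REST binds a long element in many neuronal promoters. Its left part TTCAGCACC, sought only as an exact match on both strands, was in none of these 4 sequences and in 0.288% of all promoters. The right part GGACAGC, sought likewise, was in the GAD2 sequence shown and in 4.76% of all promoters. Just before it in GAD2 stand the letters CAGCACC, the end of the left part, and then CG, so an inexact match was not excluded. These matches describe the letters of a short stretch and say nothing of binding.

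Apart from RELN, the genes lay largely inside islands, the lowest covered shares being 23.4% at DRD2 and 40% at DRD1 in KARPAS-422 and 27.7% at GAD1 in Pfeiffer. At least 1 island met 9 of the 10 gene windows in Pfeiffer, 10 in WSU-DLCL2 cells and 10 in KARPAS-422. With a false discovery rate of at most 1e-10 per island the counts were 9, 9 and 8, as RELN lost its islands in both lines that had any and KCNA1 lost its own in KARPAS-422. For comparison, 41.7% of consecutive autosomal stretches of 50 kb held an island in Pfeiffer, 42.5% in WSU-DLCL2 cells and 44.2% in KARPAS-422, though the gene windows ran from 15 to 529 kb and a longer window meets an island more easily. Islands covered 88.8% of the bases of the 9 windows without RELN in Pfeiffer, 87.9% in WSU-DLCL2 cells and 71.5% in KARPAS-422. Of the autosomes they covered 25.6%, 24.8% and 24.7%, in the same order. With RELN, whose window makes up 529 of 1020 kb, the covered share was 42.8%, 44.2% and 39.3%. The median covered share of the 10 windows was 98.1% in Pfeiffer, 95.1% in WSU-DLCL2 cells and 74.4% in KARPAS-422. A share of 90% or more was reached by 8 windows in Pfeiffer, 7 in WSU-DLCL2 cells and 3 in KARPAS-422.

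**Figure D1:**
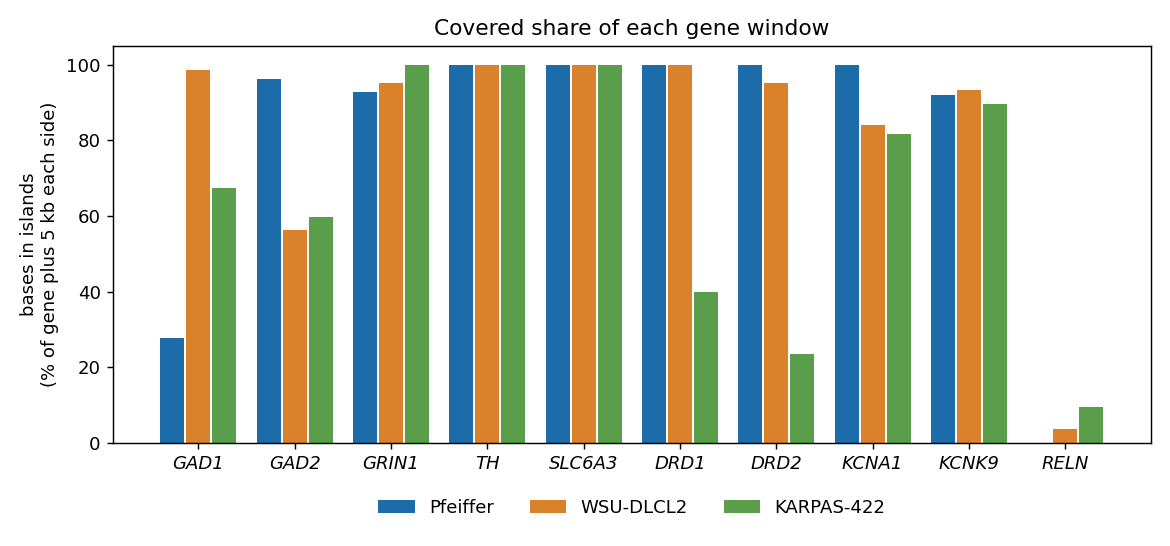
Bars give the percentage of bases in H3K27me3 islands in each gene window (gene plus 5 kb on each side), with 1 bar per line and no error bar since each line had 1 library. TH and SLC6A3 reach 100% in all 3 lines, DRD2 has 23.4% in KARPAS-422 and RELN stays at 9.36% or less.

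The gene start was read separately, as the 10 kb centred on it. At least 50% of these bases lay in islands for 9 genes in Pfeiffer, 8 in WSU-DLCL2 cells and 7 in KARPAS-422. Among all consecutive stretches of 10 kb on the autosomes the same was true of 26.5%, 25.7% and 25.8%, a background that is not limited to gene starts. In all 3 lines this held for 6 genes, namely GAD1, GRIN1, KCNA1, DRD1, TH and SLC6A3. KCNK9 and DRD2 did so in Pfeiffer and WSU-DLCL2, GAD2 in Pfeiffer and KARPAS-422, and RELN in none. GAD2 in KARPAS-422 stood exactly at 50%, so the 1 kb precision of the gene positions decides that call. With 2 kb on each side of the start instead, every line had 7 such genes, so the fall from 9 to 7 depends on the window. When at least 1 covered base of the 10 kb was enough, the counts were 9, 8 and 8. GAD2 in WSU-DLCL2 missed this by less than the 1 kb precision. The map of islands around the starts shows how far they reach.

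**Figure D2:**
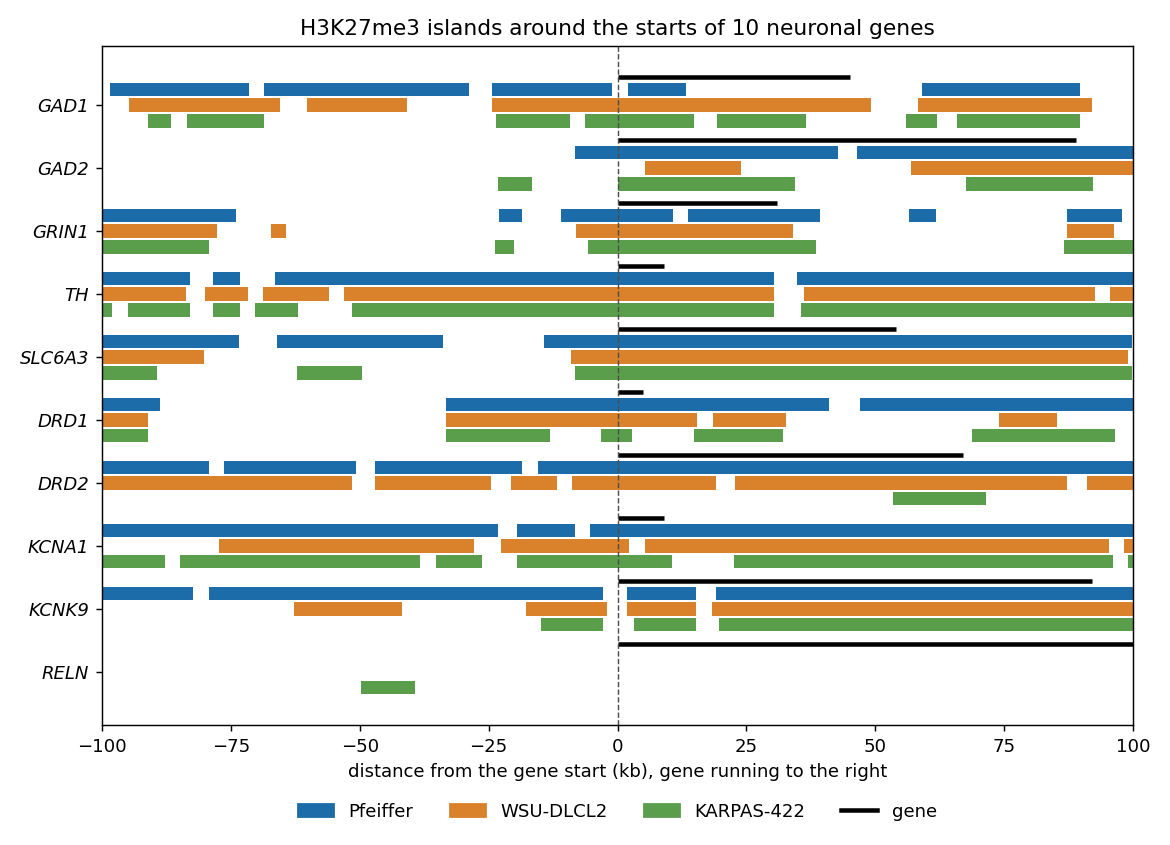
Each gene is aligned at its start (0 kb) and runs to the right, with islands of Pfeiffer, WSU-DLCL2 and KARPAS-422 as coloured bars under a black line for the gene, up to 100 kb on either side. Islands run through the starts of TH and SLC6A3 in all 3 lines, a gap holds the given start of KCNK9 in all 3, and the start of RELN lies in an island-free stretch.

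The genes of dopamine synthesis and uptake, TH and SLC6A3, were covered over their whole windows in every line. TH lay in a single island that began at chr11:2163751 in all 3 lines and ended at 2260500 in Pfeiffer, 2247000 in WSU-DLCL2 cells and 2245500 in KARPAS-422. It held 2628 H3K27me3 reads over 1120 input reads in Pfeiffer, 2355 over 895 in WSU-DLCL2 cells and 2305 over 473 in KARPAS-422. Its fold over input was 2.02 in Pfeiffer (95% interval 1.88 to 2.17), 2.07 in WSU-DLCL2 cells (1.92 to 2.24) and 2.96 in KARPAS-422 (2.68 to 3.28). The KARPAS-422 interval lay above both others, and H3K27me3 reads per kb of island were nearly alike, at 27.2, 28.3 and 28.2. These reads per kb are not scaled for library depth. Input per kb of this island stood at 1.08, 1.00 and 0.772 times the line's median island. The part of a lower DNA copy number in the higher fold of KARPAS-422 was not tested. All intervals here are exact for counting error only, because reads that share an amplified molecule cannot be told apart here.

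SLC6A3 showed the same complete cover. Its island ran from chr5:1346251 to 1460250 in Pfeiffer, from 1347001 to 1455000 in WSU-DLCL2 and from 1346251 to 1454250 in KARPAS-422, so its edges agreed within 6 kb. Reads of H3K27me3 over input numbered 4993 over 2170 in Pfeiffer, 3789 over 1485 in WSU-DLCL2 cells and 2950 over 745 in KARPAS-422. The fold was 1.98 (1.88 to 2.08), 2.01 (1.89 to 2.14) and 2.41 (2.22 to 2.61). KARPAS-422 was again highest by fold, yet it had the fewest H3K27me3 reads per kb, 27.3 against 43.8 in Pfeiffer and 35.1 in WSU-DLCL2. Input per kb followed the opposite order to fold, at 1.77, 1.28 and 0.920 times the line's median.

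The dopamine receptors differed more between lines. DRD1 lay wholly inside an island of 74.25 kb in Pfeiffer (chr5:174831001-174905250) and of 48.75 kb in WSU-DLCL2 (chr5:174856501-174905250), which shared their right edge. In KARPAS-422 the window held a single island of 6 kb (chr5:174869251-174875250), which covered the gene start and 40% of the window, leaving the rest free. That island had 132 H3K27me3 reads over 27 input reads and a fold of 2.97 (1.95 to 4.68). In Pfeiffer there were 1859 reads over 1145 (fold 1.40, 1.30 to 1.51) and in WSU-DLCL2 1162 over 498 (fold 1.84, 1.65 to 2.05). The KARPAS-422 fold rested on few input reads and on a much shorter island, so these folds describe different stretches. H3K27me3 reads per kb of island were close, at 25, 23.8 and 22. Relative input within 2.5 Mb of DRD1 was 1.5 in Pfeiffer, 1.09 in WSU-DLCL2 cells and 0.992 in KARPAS-422.

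DRD2 was covered over 100% of its window in Pfeiffer and 95.1% in WSU-DLCL2, but over 23.4% in KARPAS-422. Pfeiffer had an island of 132 kb (chr11:113230501-113362500) with 2796 H3K27me3 reads over 1373 input reads and a fold of 1.75 (1.64 to 1.87). WSU-DLCL2 had an island over the gene body (chr11:113259751-113324250, fold 1.64) and another over the start (chr11:113328001-113355750, fold 1.37), with 2254 reads over 1138 in all. KARPAS-422 had only an island of 18 kb in the 3′ part of the gene (chr11:113275501-113293500), with 281 reads over 78 and a fold of 2.19 (1.70 to 2.85). From there to chr11:114048750, a stretch of 755.25 kb that holds the gene start, KARPAS-422 had no island. Input in its DRD2 island stood at 0.578 of the line's median, and at 0.572 in the 62.2 kb of islands within 1 Mb. Within 2.5 Mb it was 5.16, over 974 kb of islands. The corresponding inputs within 1 Mb were 0.971 in Pfeiffer and 1.09 in WSU-DLCL2. The part of copy number in the missing cover was not tested.

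GRIN1 had the highest fold of the 10 genes in each line, though the interval of TH overlapped its own in Pfeiffer and those of DRD1 and TH did in KARPAS-422. At the printed precision the interval of SLC6A3 also touched that of GRIN1 in Pfeiffer (at 2.08), and that of DRD2 did in KARPAS-422 (at 2.85). GRIN1 lay in islands in every line. It held 1597 H3K27me3 reads over 601 input reads in Pfeiffer, 1811 over 488 in WSU-DLCL2 cells and 1400 over 261 in KARPAS-422. The fold was 2.29 in Pfeiffer (2.08 to 2.52), 2.92 in WSU-DLCL2 cells (2.64 to 3.24) and 3.26 in KARPAS-422 (2.85 to 3.74). These values stood above 97.0%, 99.5% and 99.0% of the autosomal islands of the same line. Cover was 92.7%, 95.1% and 100%, from islands of similar reach: chr9:140025001-140067000 in WSU-DLCL2, chr9:140027251-140071500 in KARPAS-422, and a pair in Pfeiffer split by a gap of 3 kb inside the gene (chr9:140043751-140046750). In WSU-DLCL2 the H3K27me3 reads per kb of island were also the highest of any member in that line, at 43.1, with input near its median (1.08). Input around GRIN1 was lower in KARPAS-422 (0.778 within 2.5 Mb) than in Pfeiffer (1.03) or WSU-DLCL2 (0.994).

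At the genes of the GABA-producing enzymes, GAD1 and GAD2, pooled folds lay between 1.35 and 1.66 in the 3 lines. WSU-DLCL2 covered GAD1 with an unbroken island of 73.5 kb (chr2:171648751-171722250, 1627 H3K27me3 reads over 831 input reads, fold 1.54). Pfeiffer had a gap of 3 kb exactly at the gene start (chr2:171672001-171675000). Its flanking islands had folds of 1.36 (1.17 to 1.59) upstream and 2.34 (1.90 to 2.91) downstream (332 H3K27me3 reads over 122 input reads), and the 3′ part of the gene held no island. In KARPAS-422 an island over the start (chr2:171666751-171687750) had 380 reads over 115 and a fold of 2.01 (1.63 to 2.5), and a second within the gene had a fold of 1.26. Input per kb stood at 0.73 times the line's median in the first of these KARPAS-422 islands and at 1.07 in the second, and the part of this in their folds was not tested. Relative input within 2.5 Mb lay between 1.01 and 1.04 in the 3 lines.

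GAD2 was covered over 96.2% of its window in Pfeiffer, 56.3% in WSU-DLCL2 cells and 59.8% in KARPAS-422. Pfeiffer had islands from chr10:26496751 to 26547750 (1008 H3K27me3 reads over 516 input reads, fold 1.68) and from 26551501 to 26612250 (1195 over 654, fold 1.57). In WSU-DLCL2 the first island began at chr10:26510251, about 5 kb inside the gene, and the start window held no covered base. The window ended less than 1 kb before this island, so the 1 kb precision of the gene positions decides that absence. No island of WSU-DLCL2 lay upstream of this first island for 1499.25 kb. KARPAS-422 had an island from chr10:26505001 to 26539500 with 647 reads over 232 and a fold of 1.70 (1.46 to 1.98). Both these lines lacked islands over 33 kb in the middle of the gene, where Pfeiffer was covered except for 3.75 kb. Pooled over the gene, fold was 1.62 (1.51 to 1.74), 1.35 (1.24 to 1.47) and 1.56 (1.39 to 1.74). Relative input was alike, at 0.900, 0.924 and 0.919 within 2.5 Mb.

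**Figure D3:**
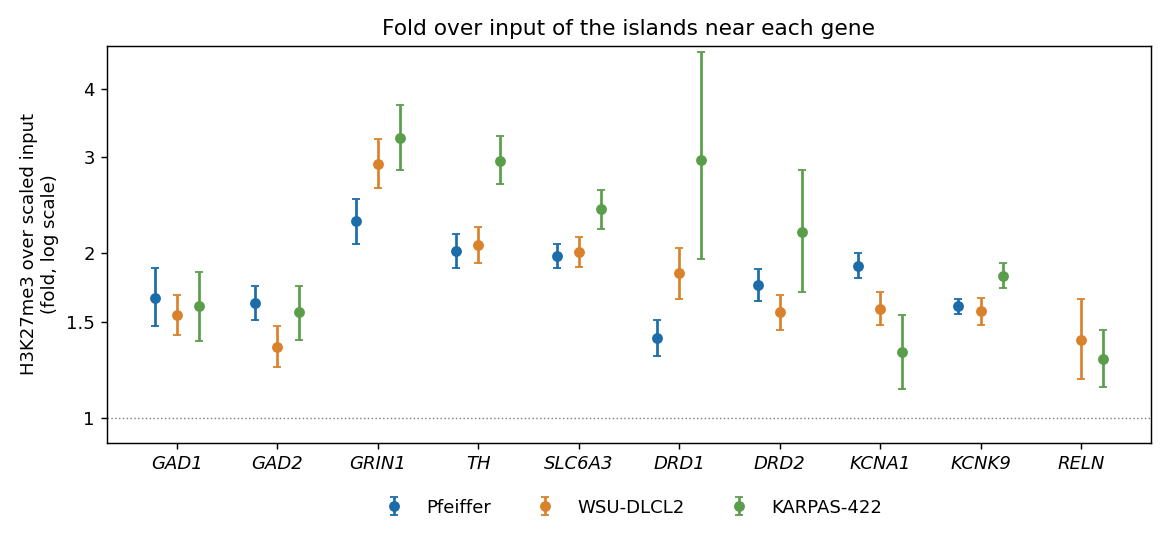
Points give the ratio of H3K27me3 reads to scaled input reads (log axis), pooled over the islands near each gene, per line, with exact 95% counting intervals. GRIN1 is highest in each line, with 3.26 in KARPAS-422, and the islands behind the points differ in length between lines, as at DRD1 (6 kb in KARPAS-422, 74.25 kb in Pfeiffer); Pfeiffer has no point at RELN because it had no island there.

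The potassium channel genes were covered in all lines, each in its own way. KCNA1 lay inside an island of 202.5 kb in Pfeiffer (chr12:5013751-5216250), which also holds KCNA5, a related channel gene downstream. This island had 4744 H3K27me3 reads over 2151 input reads and a fold of 1.90 (1.80 to 2.00). In WSU-DLCL2 a gap of 3 kb within KCNA1 (chr12:5021251-5024250) parted islands with folds of 1.47 and 1.61, which held 2493 reads over 1241. KARPAS-422 had 30 kb (chr12:4999501-5029500) with 537 reads over 248 and a fold of 1.32 (1.13 to 1.54). The islands near KCNA1 spanned 202.5, 114.75 and 30 kb in the 3 lines, so their folds belong to different stretches and are not ranked. Inside the span of the Pfeiffer island KARPAS-422 had 3 further islands with folds from 1.79 to 1.95, and WSU-DLCL2 had 4 with folds from 1.52 to 2.17. Relative input lay between 0.960 and 1.02 within 2.5 Mb.

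KCNK9 was covered over 91.9% of its window in Pfeiffer, 93.4% in WSU-DLCL2 cells and 89.7% in KARPAS-422, by 3 islands in each line. The given start lay in a gap in every line, from chr8:140714251 to 140718750 in Pfeiffer, from 140714251 to 140718000 in WSU-DLCL2 and from 140712751 to 140718750 in KARPAS-422. KCNK9 is longer in the RefSeq table (102.286 kb, against 92 kb), so its start is less certain than those of the other members. A second gap, inside the gene, ended at 140700750 in all 3 lines. The longest island ran from chr8:140476501 to 140697000 in Pfeiffer, well past the 3′ end of the gene, and from 140477251 to 140696250 in KARPAS-422, but only from 140578501 to 140697750 in WSU-DLCL2. Reads over these and the shorter islands were 9715 over 5234 input reads in Pfeiffer, 3635 over 1827 in WSU-DLCL2 cells and 5790 over 1929 in KARPAS-422. The pooled fold was 1.60 (1.55 to 1.65), 1.57 (1.48 to 1.66) and 1.82 (1.73 to 1.92). Relative input within 2.5 Mb was 1.54 in Pfeiffer, 1.09 in WSU-DLCL2 cells and 0.94 in KARPAS-422.

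RELN stood apart from the other 9 genes. No island met its 529 kb window in Pfeiffer, and the island-free stretch around its start ran for 1313.25 kb, from chr7:103089001 to 104402250. WSU-DLCL2 had 2 islands, both in the 3′ part of the gene, that covered 3.69% of the window with 398 H3K27me3 reads over 225 input reads and a fold of 1.39 (1.18 to 1.65). KARPAS-422 had 3 islands that covered 9.36% with 849 reads over 403 and a fold of 1.28 (1.14 to 1.45), above only 5.88% of its autosomal islands. None of these lay within 5 kb of the start, and no base of the window was covered in all 3 lines. The longest KARPAS-422 islands there were 18.75 kb, from chr7:103119001 and from 103162501, with folds of 1.20 (0.997 to 1.46) and 1.30 (1.07 to 1.60). Relative input within 2.5 Mb was 1.00, 1.01 and 0.983, measured in islands around the gene. Input inside the island-free stretch is not listed.

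How far the lines covered the same bases differed from gene to gene. Of the bases in islands of any line, 56.4% lay in islands of all 3, and without RELN 63.7%, against 41.2% over all autosomal islands. KCNK9 and SLC6A3 made up 91.5 and 64 of the 305.75 kb covered in all 3 lines. The share was 100% for TH and SLC6A3, 96.1% for KCNK9 and 87.8% for GRIN1. It was 65.8% for KCNA1, 45.7% for GAD2, 40.0% for DRD1, 28.1% for GAD1, 23.4% for DRD2 and 0% for RELN. By the Jaccard index over the 10 windows, which divides shared by covered bases, Pfeiffer and WSU-DLCL2 had 0.777, WSU-DLCL2 and KARPAS-422 0.655, and Pfeiffer and KARPAS-422 0.640. Over all autosomal islands the index was 0.576, 0.553 and 0.555 in the same order of pairs. Both measures rise with the covered share alone. Cover was higher in the gene windows than over the autosomes, so closer agreement between the lines at these genes was not tested. Islands near the genes were shorter in KARPAS-422, with a median of 19.9 kb against 67.5 kb in Pfeiffer and 45.4 kb in WSU-DLCL2. Over all autosomal islands the medians were 15.8 kb in KARPAS-422, 20.2 kb in Pfeiffer and 18.8 kb in WSU-DLCL2. A long island meets a gene window more easily, so medians near the genes and over all islands are not like for like. RELN added 3 islands to the KARPAS-422 median, 2 to that of WSU-DLCL2 and none to that of Pfeiffer.

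Fold over input followed another order than cover. Pooled over all islands near the genes it was 1.75 in Pfeiffer (1.72 to 1.79, 31308 H3K27me3 reads over 15365 input reads), 1.74 in WSU-DLCL2 cells (1.70 to 1.79, 21013 over 9496) and 2.01 in KARPAS-422 (1.94 to 2.07, 16049 over 4862). The median fold of all autosomal islands was 1.58, 1.54 and 1.61. Islands whose fold in the authors' deposited lists was 2 or more numbered 4 of 14 in Pfeiffer, 3 of 16 in WSU-DLCL2 and 7 of 16 in KARPAS-422, against 10.5%, 11.3% and 19.6% of all autosomal islands. These islands added up to 1124, 811 and 678 kb, so the pooled folds belong to different stretches. Lengths were similar across the lines at TH, SLC6A3 and GRIN1. Of these, TH and SLC6A3 had a KARPAS-422 interval above those of both other lines, and at GRIN1 the KARPAS-422 interval lay above that of Pfeiffer and overlapped that of WSU-DLCL2. At KCNK9 the KARPAS-422 interval also lay above both others, over islands of 310.5 kb in Pfeiffer, 148.5 kb in WSU-DLCL2 cells and 243 kb in KARPAS-422. Fold and relative input share their input reads. Input in the KARPAS-422 islands stood at 0.772 times the line's median at TH, 0.920 at SLC6A3, 0.787 at GRIN1 and 1.06 at KCNK9, and at 0.600 at DRD1 and 0.578 at DRD2. The part of the input in these folds was not tested.

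**Figure D4:**
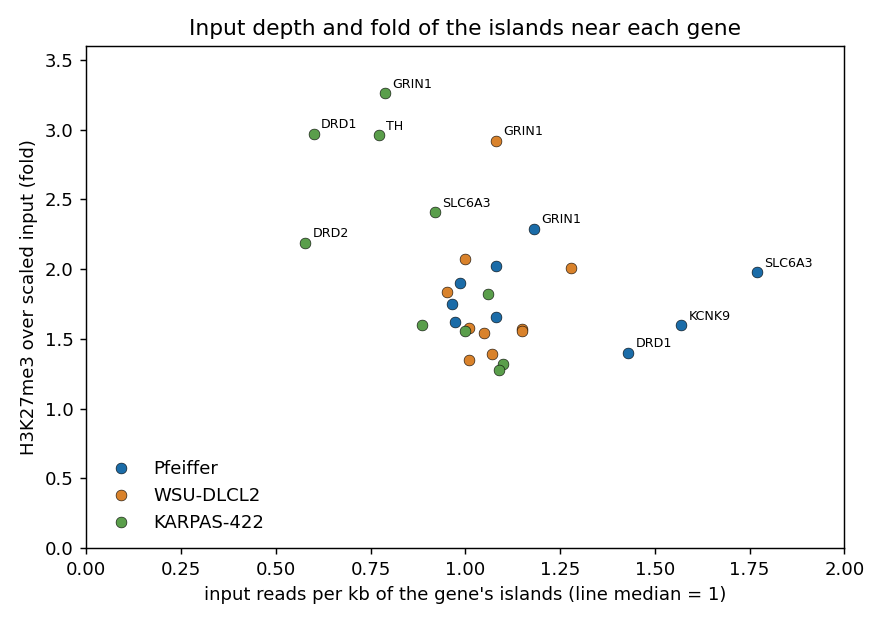
Each point is a gene in a line, with input reads per kb of its islands relative to the line's median island on the x axis and fold of H3K27me3 over scaled input on the y axis, both made from the same input reads. The KARPAS-422 points of DRD1, DRD2, TH and GRIN1 lie at 0.787 or below, and the Pfeiffer points of DRD1, KCNK9 and SLC6A3 lie at 1.43 or above.

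A list of 12 further genes of neuronal transmission was measured in the same way. At least 50% of the start window was covered for 10 of the 12 in Pfeiffer, 7 in WSU-DLCL2 cells and 9 in KARPAS-422, and for 7 in all 3 lines. SLC32A1, which loads GABA into vesicles, lay inside islands of 112.5, 134.25 and 103.5 kb with folds of 2.06, 1.83 and 2.03. DBH, which turns dopamine into noradrenaline, lay in islands that all began at chr9:136344751 and had folds of 2.56, 2.10 and 2.84. The dopamine receptor gene DRD5 had an island over its start in Pfeiffer (fold 1.98) and KARPAS-422 (fold 2.65) and none in WSU-DLCL2. SLC17A6, a vesicular glutamate transporter, and the dopamine receptor gene DRD4 had no island within 5 kb in any line, as at the start of RELN. The promoters of DRD4 and SLC32A1 both held 32 CG dinucleotides in 250 bases, and that of SLC17A6 held 7. The relation of CG count to the mark was not tested. GRIN2A and GRIN2B, NMDA receptor subunits in long genes like RELN, were covered over 86.0% and 43.8% of their windows in Pfeiffer, 34.8% and 26.2% in WSU-DLCL2 and 67.7% and 72.1% in KARPAS-422.

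B cell and housekeeping genes, which these cells use by textbook knowledge, served for comparison. Of the B cell genes CD79A, CD79B and MS4A1, 1 had at least 50% of the start window covered in each line, exactly 50% in every case, so the 1 kb precision of the gene positions decides these calls. MS4A1, which encodes CD20, had no island in any line. CD79B had none in Pfeiffer, and the islands of WSU-DLCL2 and KARPAS-422 began at chr17:62010001, where the gene starts at the 1 kb precision used, and ran away from it. CD79A lay in a 6 kb island of Pfeiffer with a fold of 2.26 (1.71 to 3.01). The housekeeping gene GAPDH had no island in any line, and the islands near ACTB, in WSU-DLCL2 and KARPAS-422, left the gene itself uncovered.

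**Figure D5:**
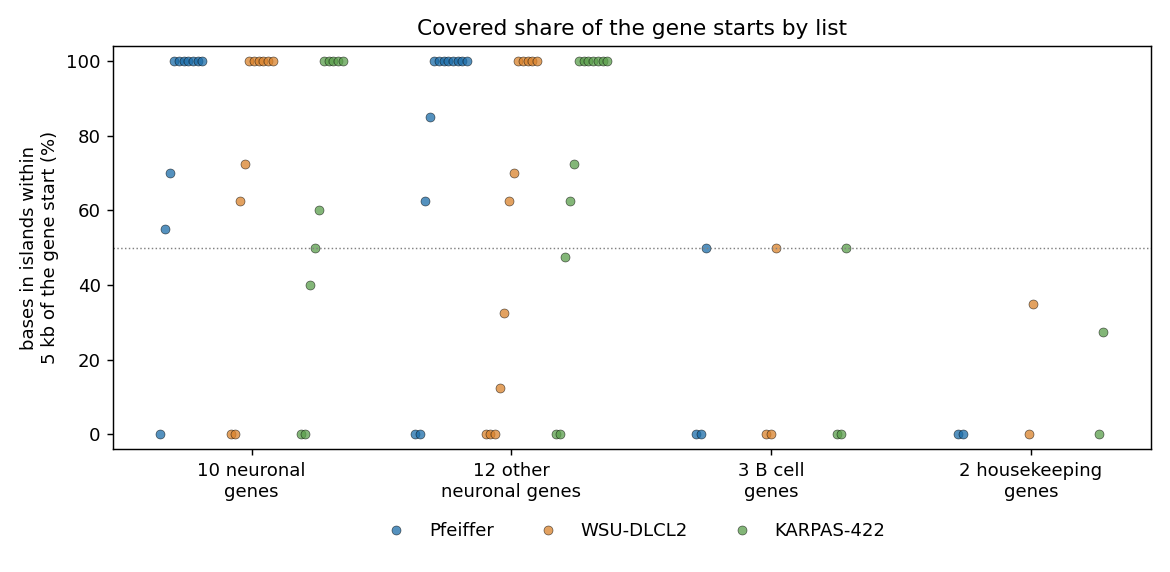
Each point is a gene, with the percentage of bases in islands within 5 kb of its start, by list and line; the dotted line marks 50%. Most points of the 10 neuronal genes and of the 12 other neuronal genes sit at 100%, while the B cell and housekeeping genes lie at 50% or below in all 3 lines.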

How the data were processed

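Immunoprecipitated and input chromatin of 3 lines was sequenced, 1 library of each kind per line. Bowtie, SICER and hg19 are named, without versions, per the submitters' processing notes. File names give windows of 750 bases, gaps of 2250 bases and a false discovery rate (FDR) of 0.001. Read filters were not stated in the sources used here. Per island, the deposited lists hold raw counts of H3K27me3 and input reads, a p-value, a fold (ratio of counts after library scaling) and a q-value, as the authors computed them. These gave 1 H3K27me3 to input library ratio per list: 1.16 in Pfeiffer, 1.27 in WSU-DLCL2 cells and 1.65 in KARPAS-422. Only reads in islands are listed (17024803, 17188115 and 16039824 H3K27me3 reads over 8800268, 8224578 and 5694645 input reads on the autosomes), so full depth is unknown, and a gene without an island may still hold reads below the calling limit.

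Start positions, 0-based in the files, are printed 1-based. Gene positions are hg19, to 1 kb. The 10 genes were given with positions, those of 18 further genes were entered by hand and used where the RefSeq table for GRCh38.p14 had the same chromosome, the same strand where it gives one, and a length within 10% or 2 kb. This left 12 of 13 neuronal genes, all 3 B cell genes and both housekeeping genes; another comparison gene is not reported here. KCNK9 is longer in that table (102.286 kb, against 92 kb), and its given position was kept. Reads and folds belong to whole islands, which can reach past a gene window. Pooled folds are summed H3K27me3 over summed input reads, times the scaling of the list, with exact 95% intervals. Relative input is input reads per kb of the islands centred within 2.5 Mb of the gene middle, or of the gene's own islands, over the line's median island. It stands in for DNA copy number and holds other influences too.

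Every member was named with all lines, and islands were named where they covered the gene start, or else held most H3K27me3 reads; other islands, gaps and own-island inputs were added after the values were seen. Members and lists were chosen with earlier results of these data known. Functions were tested on simulated data. Alternatives tried were an FDR limit of 1e-10, folds of 2 or more only, other flanks and start windows, joined islands, and the set without RELN. The tools were numpy 2.4.6, matplotlib 3.10.9, pandas 2.3.3 and scipy 1.17.1 under Python 3.11.15.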

Additional observations from a re-analysis of the deposited data

How the results depend on the processing

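Of 78 recomputed summary values, 21 moved out of the interval of the main value or by over 1.5 times. This interval reflects counting error for the pooled folds only. For covered shares and shared bases it took stretches of 750 bases as independent, which neighbouring stretches of an island are not. Their moves are therefore descriptive and not tested against error. Most moved with a fold of at least 2. Islands then met 3 of the 10 gene windows in Pfeiffer and 3 in WSU-DLCL2, the start was covered in 2 and 3 genes, and the covered share was 6.69% in Pfeiffer, 12% in WSU-DLCL2 cells and 17.6% in KARPAS-422. Pooled folds became 2.13, 2.19 and 2.64, and bases covered in all 3 lines 30.6%. A fold limit removes islands, so fewer bases and higher folds follow from its construction. With a false discovery rate of at most 1e-10 the covered share was 39.1% in WSU-DLCL2 cells and 31.2% in KARPAS-422, and the pooled fold of KARPAS-422 2.15. With nothing on either side of the genes it was 38.6% in Pfeiffer and 40.3% in WSU-DLCL2, and with 10 kb 46% in Pfeiffer. Without RELN it was 88.8%, 87.9% and 71.5%, and 63.7% of the covered bases lay in all 3 lines. Relative input within 1 Mb differed from that within 2.5 Mb by over 1.5 times in 1 of 30 values, DRD2 in KARPAS-422 (0.572, against 5.16).

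No paired analysis was possible because each line had a single H3K27me3 and a single input library. Input depth limits the folds most in KARPAS-422, with 27 input reads at DRD1.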

Other observations

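Exact island starts were rarely shared between the lists. Of islands near the 10 genes, 2 began at the same position in all 3 lines, those at TH and inside KCNK9. Among all autosomal islands 866 did, which is 4.07% of the list of Pfeiffer, 3.75% of that of WSU-DLCL2 and 3.14% of that of KARPAS-422.

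In some lines islands covered the ends of a gene unequally. HTR2A, a serotonin receptor gene, was covered over 20.1% of its 5′ part and 42.5% of its 3′ part in KARPAS-422, although its start window was covered in full, but over 91.0% and 97.0% in Pfeiffer and 100% of both in WSU-DLCL2, whose island of 171 kb stood at a relative input of 1.47. GRIN2A had 57.4% of its 5′ part and 11.5% of its 3′ part covered in WSU-DLCL2, against 93.7% and 79.9% in Pfeiffer and 74.5% and 59.5% in KARPAS-422. The 2 parts are equal lengths of the gene, split at its middle. SLC6A2, the noradrenaline transporter gene, had 12.5% of its start window covered in WSU-DLCL2, against 100% in Pfeiffer and KARPAS-422, at relative inputs of 0.994, 1.44 and 0.972 within 2.5 Mb in the order WSU-DLCL2, Pfeiffer and KARPAS-422.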
